A study of Mus musculus with 16 samples.

Results

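Oxidative phosphorylation (OXPHOS) genes were followed in CD8+ T cells of accepted and rejecting mouse kidney allografts and of spleens. The members were every gene whose symbol starts with Nduf, Uqcr, Cox4, Cox5, Cox6, Cox7, Cox8 or Atp5, together with the mitochondrially encoded genes, whose symbols start with mt-. Of the 32285 genes listed in any of the CD8+ T cell matrices, 103 met this rule, and 99 of them were among the 16243 genes listed in every matrix. They comprised 90 nuclear-encoded genes and 13 mt- genes. The nuclear-encoded genes were 37 subunits and 8 assembly factors of complex I, 8 genes of complex III, 20 genes of complex IV and 17 genes of complex V. Ndufa4, Ndufa4l2 and Cox7a2l were placed with complex IV, since the NDUFA4 protein is a subunit of that complex despite its name and COX7A2L joins complex IV to complex III.

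OXPHOS takes electrons from NADH and passes them through complex I, complex III and complex IV to oxygen, and complex V makes ATP with the proton gradient that this builds. Complexes I, III, IV and V are mosaics: a small core is encoded by the mitochondrial genome and transcribed within mitochondria as long polycistronic RNAs, while the remaining subunits are encoded in the nucleus and imported. Resting T cells rely largely on OXPHOS, activated T cells enlarge their mitochondria while raising glycolysis, and loss of mitochondrial function has been described in exhausted CD8+ T cells.

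CD45+ cells were profiled by droplet single-cell RNA-Seq with molecular tags, so that a count is a number of unique molecular identifiers (UMIs). The accepted allografts were DBA/2J kidneys in C57BL/6 (B6) recipients, taken with the recipient spleen 1, 3 and 24 weeks after transplantation. The rejecting allografts were B6 kidneys in DBA/2J recipients, taken with the recipient spleen at 1 week, and spleens of naive mice without a transplant were the controls. The sample labels give wild type and C57BL/6J for every group, so the donor and recipient strains were taken from the study's text, which also says that the accepted grafts survived without immunosuppressive drugs. Each matrix holds the cells that the authors called CD8+ T cells in 1 tissue and time point, with a tag in each barcode, and each tag was taken as a library. There were 3 libraries each for kidney and spleen at 1 week and at 24 weeks, 5 each at 3 weeks, 2 for rejecting kidney, 3 for rejecting spleen and 5 for naive spleen. The study's methods treat each mouse as a separate sample, and the replicate numbers given there match the tags of the accepted recipients. No label ties a tag to a mouse, so p-values measure the spread between these 32 libraries, which may be in part technical.

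Only cells with at least 1 UMI of Cd8a or Cd8b1, which encode the CD8 coreceptor chains, were summed, and these were 56585 of 72639 cells. No doublet caller was run here, and how the authors treated doublets is not given in the sources used here. Of 496 pairs of libraries 269 shared a cell barcode, at most 1.79% of the cells of the smaller library. The libraries then held 153266 to 22782080 UMIs, and the shallowest was library 2 of the rejecting spleen, with 56 cells. Levels are given as CPM, a library's UMIs for a gene scaled to a common library total. A change is the difference in log2 CPM with its standard error (SE), tested by the edgeR quasi-likelihood test over all genes at an adjusted p of 0.05, and "called" means past that threshold. Members that are listed but not tested had too few UMIs for edgeR's filter on low counts, so a count of calls never covers all 103. Shares of all genes called are given for library totals only. Counts under other scalings or cell selections stand without that background, so whether they exceed it cannot be told here. CPM here are shares of a library's UMIs summed over its cells. They do not tell apart a gene with fewer copies per cell and a gene in fewer of the cells. The groups also differed in which cells they held. Dividing cells, defined by a UMI of Mki67, Top2a, Pclaf, Stmn1 or Birc5, were 42.9% to 68.6% of the cells in the accepted kidney at 1 week, 14.1% to 18.5% at 3 weeks, 11.4% to 23.0% in the recipient spleen at 1 week and 5.69% to 9.91% in naive spleen. Summed B cell markers (Cd79a, Cd79b and Ms4a1) were 8.86 to 9.09 CPM in the accepted kidney at 1 week and 379 to 811 CPM in the recipient spleen.

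In the 24-week libraries the markers that set kidney and spleen apart at 3 weeks ran the other way. Of the cells labelled accepted kidney at 24 weeks, 47.4% had a CD8 UMI, and of those labelled recipient spleen 94.6% did, whereas at 3 weeks the kidney had 96.8% and the spleen 46.8%. The summed T cell markers Cd3e, Cd3d, Cd3g and Trac averaged 2450 CPM in the libraries labelled kidney and 5202 CPM in those labelled spleen, beside 5348 CPM in the 3-week kidney and 2008 CPM in the 3-week spleen. The cause was not tested. All results of 24 weeks are given for the libraries as labelled, and no result within 1 and 3 weeks uses them.

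**Figure D1:**
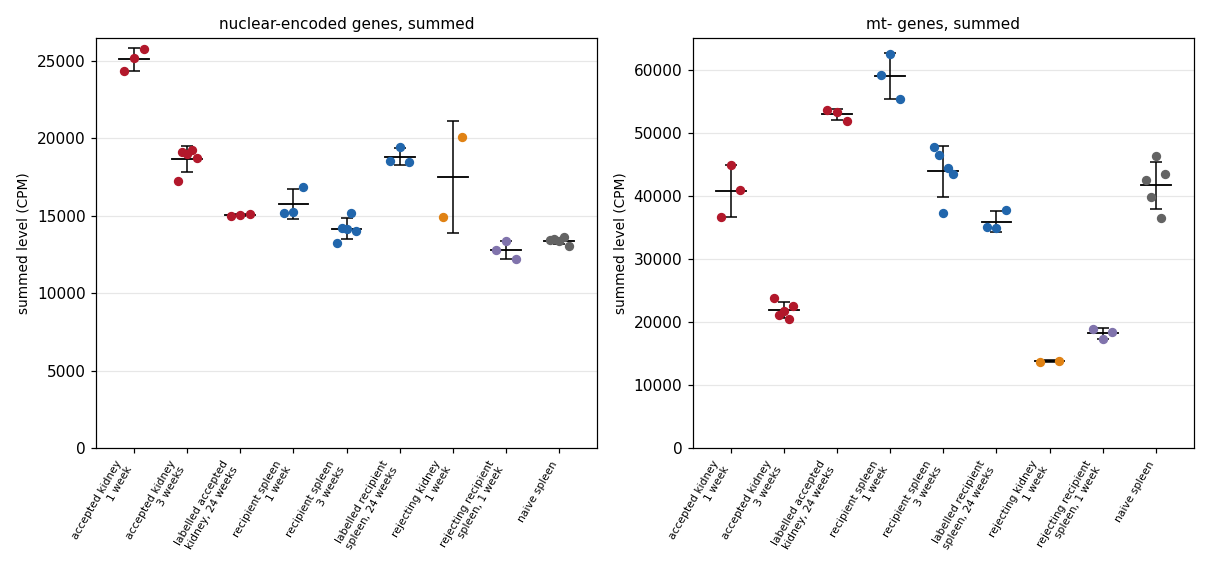
Summed CPM of the nuclear-encoded OXPHOS genes (left) and of the mt- genes (right) in each library, with the mean and the SD over the libraries of each group as bars. The 3 libraries of the accepted kidney at 1 week hold the highest nuclear sums, from 24326 to 25750 CPM, while the rejecting libraries hold the lowest mt- sums.

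The CD8+ T cells of the accepted kidney at 1 week carried the highest nuclear-encoded OXPHOS share. Their libraries summed to 24326, 25210 and 25750 CPM, and the recipient spleens of that week to 15193, 15278 and 16887 CPM, without overlap. At 3 weeks the 5 kidney libraries lay between 17244 and 19229 CPM and the 5 spleen libraries between 13262 and 15207 CPM. Naive spleen had 13399 ± 207 CPM (SD, n = 5), and the rejecting kidney libraries stood apart from each other at 14939 and 20066 CPM. The 3 rejecting spleens lay between 12233 and 13401 CPM.

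The mt- sum ordered the groups differently. It was 59007 ± 3602 CPM (SD, n = 3) in the recipient spleen at 1 week, 43915 ± 4057 CPM (n = 5) in that spleen at 3 weeks, 41716 ± 3711 CPM (n = 5) in naive spleen and 40808 ± 4091 CPM (n = 3) in the accepted kidney at 1 week. The last 3 of these groups overlapped. The accepted kidney at 3 weeks had 21954 ± 1289 CPM (n = 5), the rejecting spleen 18214 ± 860 CPM (n = 3) and the rejecting kidney 13764 and 13933 CPM. The ratio of the mt- sum to the nuclear sum was 3.75 in the recipient spleen and 1.63 in the accepted kidney at 1 week, 3.11 and 1.18 at 3 weeks, 3.12 in naive spleen and 0.808 in the rejecting kidney. The authors removed cells by mitochondrial content, and this bears on the mt- sums directly. The highest mt- share of a cell was 8.29% to 9.99% per accepted or naive library and 3.35% to 7.88% per rejecting library. The 3.35% comes from the library with 56 cells. Since the limits used are not given, whether the filter differed between these groups cannot be told from these values.

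In the accepted kidney at 1 week, nearly the whole nuclear-encoded set was higher than in the recipient spleen. Of 84 nuclear-encoded genes tested, 73 were higher and 1 was lower, beside 30% of all 11133 genes tested that were higher and 19.4% that were lower. Their median difference was 0.67 on the log2 scale, where the median of all genes was 0.08. All 17 complex V genes were higher, as were 33 of 37 complex I subunits, 12 of 14 complex IV genes tested, 7 of 8 complex III genes and 4 of 8 assembly factors of complex I.

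Cox5a, a subunit on the matrix side of complex IV (GRCm38 chr9:57521274-57532426, plus strand), was at 691, 654 and 807 CPM in the kidney libraries and 296, 292 and 336 CPM in the spleen libraries. The groups did not overlap, and the difference was 1.22 ± 0.11 (SE) with an adjusted p of 4.3e-06. Cox5b, another matrix-side subunit, was higher by 1.18 ± 0.14 and the complex I subunits Ndufb7 and Ndufb8 by 1.16 ± 0.12 and 1.08 ± 0.12. Within complex III the small subunits led: Uqcr10 (chr11:4701973-4704342, minus strand) was higher by 1.10 ± 0.13 and Uqcrq by 1.06 ± 0.12. Uqcrfs1, the Rieske iron-sulfur protein that hands electrons to cytochrome c1, was higher by 0.36 ± 0.13. In complex V, Atp5j of the peripheral stalk was higher by 0.99 ± 0.10, and Atp5a1, the alpha subunit of the F1 head, by 0.43 ± 0.11. Ndufaf2, an assembly factor of complex I, rose from 15.3 ± 0.915 CPM in spleen to 31.4 ± 2.84 CPM in kidney (SD, n = 3 each), and Ndufa4 (chr6:11900292-11907497, minus strand) from 294 ± 39.3 to 566.5 ± 28.6 CPM.

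The exception was Cox7a2l, the supercomplex assembly factor (chr17:83501918-83517330, minus strand). It was at 504, 520 and 491 CPM in the kidney libraries and 747, 801 and 743 CPM in the spleen libraries at 1 week, lower by 0.60 with an SE of 0.09 and an adjusted p of 0.00022. Over 1 and 3 weeks together, the lowest spleen library of accepted recipients had 568 CPM and the highest accepted kidney library 520 CPM. Naive spleens lay between 614 and 690 CPM, and rejecting spleens between 411 and 617 CPM, which overlaps the accepted kidneys.

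Dividing cells moved with this comparison, since all 5 dividing cell markers were higher in kidney. When cells with a dividing marker were left out, 66 nuclear-encoded genes were higher and 2 were lower. How many of all genes were called without these cells is not given here. The nuclear sum was then 22956 ± 729 CPM in kidney and 14857 ± 194 CPM in spleen (SD, n = 3 each). Within the dividing cells alone the mean sums were 26228 and 18742 CPM. The B cell markers moved as well, with all 3 lower in kidney, and 4 of 5 myeloid markers were higher, with sums of 38 to 85 CPM against 15 to 22 CPM. The 1 kidney parenchyma marker tested was lower in kidney. The part of these markers in the result was not tested.

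**Figure D2:**
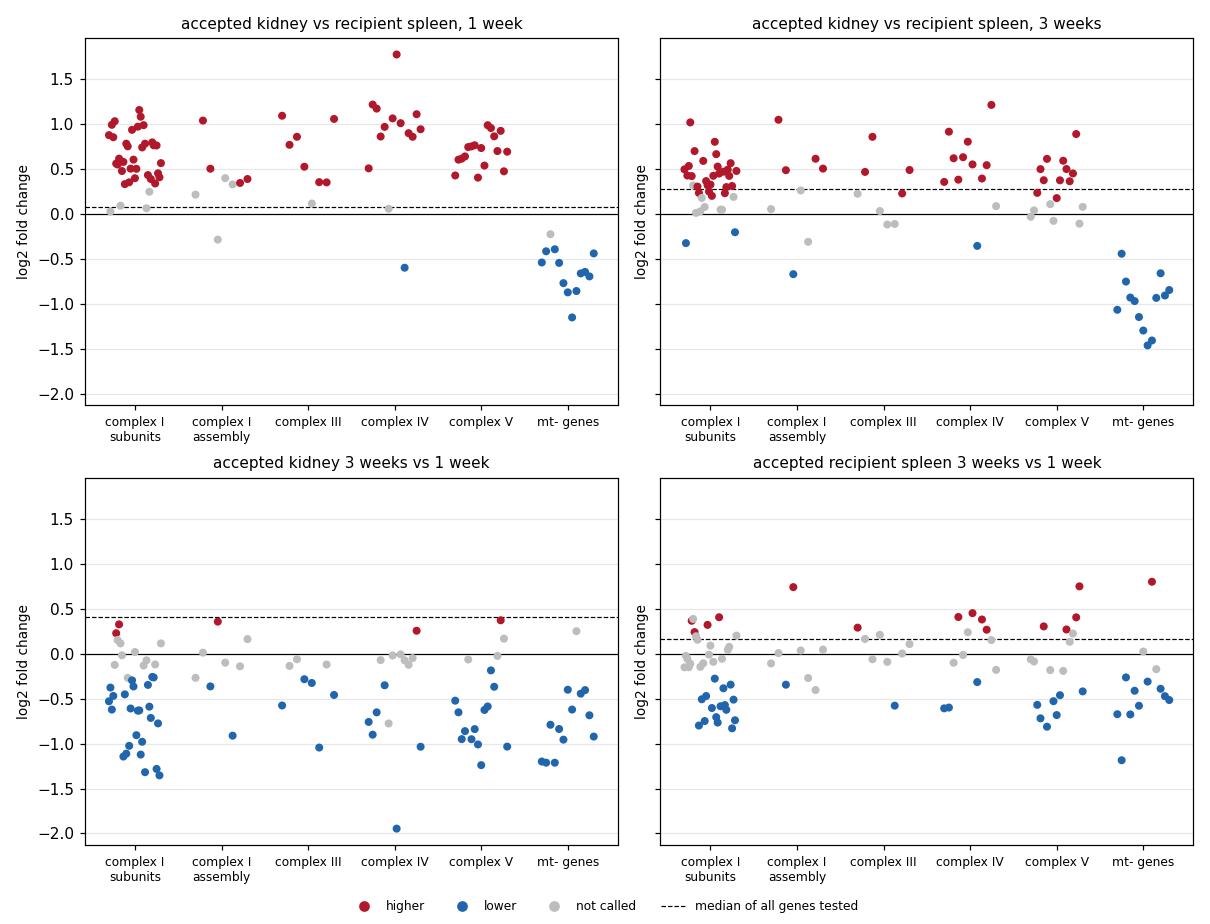
Log2 fold changes of the OXPHOS genes that were tested in 4 comparisons, grouped along the x axis by complex, with the mt- genes last. Each point is a gene, coloured red where it was higher, blue where it was lower and grey where it did not pass the test, and the dashed line is the median of all genes tested. In kidney against recipient spleen at 1 week most nuclear-encoded genes lie above 0 and the mt- genes below it, and in the 3-week against the 1-week kidney most of both lie below 0.

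The mt- genes went the other way in the same libraries. Of 13 tested, 12 were lower in kidney than in spleen at 1 week, with a median of −0.64. mt-Nd2, a membrane subunit of complex I, was at 1519, 1948 and 1458 CPM in kidney and 4014, 3912 and 3017 CPM in spleen, lower by 1.15 with an SE of 0.14 and an adjusted p of 3.6e-05. mt-Co1, the catalytic subunit of complex IV, was the gene that did not pass, at −0.22 ± 0.09 with an adjusted p of 0.053. The difference was −0.39 ± 0.10 for mt-Co2, −0.54 ± 0.11 for mt-Atp6 and −0.77 ± 0.10 for mt-Cytb. The mt- genes therefore did not share a single shift.

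At 3 weeks the kidney was again above the spleen for the nuclear-encoded genes, but so were most genes. Of 82 tested, 56 were higher and 4 were lower, beside 48.7% and 16.8% of all 10619 genes, and their median difference of 0.37 lay close to the median of all genes, 0.28. With trimmed mean (TMM) scaling, which centers the libraries on the bulk of the genes, 30 were higher and 18 were lower. The share of all genes called under that scaling is not given here. Cox8a (chr19:7215153-7217616, minus strand), a small subunit of complex IV, stood apart from that shift. Its 5 kidney libraries lay between 1008 and 1207 CPM with a median of 1190 CPM and its 5 spleen libraries between 433 and 547 CPM, a difference of 1.22 ± 0.07 with an adjusted p of 1e-11. Ndufaf2 and Ndufa13, a complex I subunit, were higher by 1.05 ± 0.12 and 1.02 ± 0.08, and Cox5a by 0.92 ± 0.06.

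The 4 genes lower in kidney at 3 weeks were Ndufaf4, Cox7a2l, Ndufa10 and Ndufv2. Ndufaf4, an assembly factor of complex I (chr4:24898083-24905001, plus strand), was at 26.5 to 34.5 CPM in kidney and 42.4 to 56.1 CPM in spleen, lower by 0.67 with an SE of 0.10. Cox7a2l was lower by 0.35 with an SE of 0.06. Ndufa4 was at 277 ± 17.9 and 260.5 ± 14.3 CPM (SD, n = 5 each) and did not pass, at 0.09 ± 0.06. Under TMM and DESeq2 scaling it was called lower, at −0.18 and −0.16, with adjusted p of 0.024 and 0.026. All 13 mt- genes were lower in the 3-week kidney, by 0.44 to 1.46 on the log2 scale, with mt-Nd2 at −1.46 ± 0.06, mt-Nd3 at −1.41 ± 0.14 and mt-Atp8 at −0.44 ± 0.14. The B cell marker sum was 10.0 to 24.1 CPM in kidney and 95 to 266 CPM in spleen. The 4 myeloid markers tested were higher in kidney, and the sums over all 5 listed were 54.8 to 143 CPM against 3.06 to 12.0 CPM. Of the dividing cell markers 3 were higher and 1 was lower, and 2 CD4 T cell markers were lower. Of 3 kidney parenchyma markers tested 2 were higher in kidney. The part of these markers in the result was not tested.

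Between 1 and 3 weeks most nuclear-encoded OXPHOS genes of the kidney fell, while most other genes rose. Of 84 tested, 51 were lower and 5 were higher at 3 weeks, beside 21.2% and 53.6% of all 11638 genes tested. Their median change was −0.36 against 0.41 over all genes, and with TMM scaling 77 were lower. Complex V had 13 of 17 genes lower and a median of −0.62, complex I subunits 25 of 37 and −0.45, complex III 5 of 8 and −0.30, and complex IV 6 of 14 and −0.23. Of the 8 assembly factors of complex I, 2 were lower and 1 was higher.

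Among the deepest falls were Ndufv2 of complex I and Atp5g3 of complex V. Ndufv2 (chr17:66078638-66101559, minus strand), which carries an iron-sulfur cluster of the NADH-binding arm, was at 150, 143 and 185 CPM at 1 week and between 53.9 and 68.3 CPM at 3 weeks. It fell by 1.35 on the log2 scale, with an SE of 0.10 and an adjusted p of 1.3e-08. Ndufc2 fell by 1.32 and Atp5g3 (chr2:73908447-73911326, minus strand), which encodes the c subunit whose ring turns in the membrane, fell by 1.24, from 427 ± 49.7 CPM (SD, n = 3) to 181 ± 8.33 CPM (SD, n = 5). Ndufa4, Atp5o and Uqcrfs1 fell by 1.03, 1.03 and 1.04, Cox5a by 0.90, and Cox4i1 (chr8:120668222-120674207, plus strand), the common isoform of subunit IV, by 0.76. The 5 genes called higher were Atp5md, Ndufaf4, Ndufa5, Cox8a and Ndufa2, by 0.23 to 0.38, which is below the median of all genes. Each of these 5 was below 0 under TMM scaling.

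All 5 dividing cell markers fell as well. Without the cells that had a dividing marker, the nuclear sum was 22956 ± 729 CPM at 1 week (n = 3) and 18637 CPM at 3 weeks. The number of nuclear-encoded genes called higher was then 11. Atp5j2 and Uqcrc1, called lower before, were then at 0.014 and 0.022 and did not pass. How many genes stayed lower without these cells is not given here. The 4 kidney parenchyma markers tested, of 20 listed, rose. The sum over all those listed was 6.88 to 12.2 CPM at 1 week and 22.8 to 26.8 CPM at 3 weeks. The sum of those listed for the recipient spleen was 32.1 to 55.2 CPM at 1 week and 8.14 to 17.2 CPM at 3 weeks. Of these markers 6 are listed in both spleen matrices, so the kidney and spleen sums do not cover the same genes. Where these UMIs came from was not tested. Of the CD4 T cell markers 2 of 3 fell, from 21.2 to 36.1 CPM to 5.01 to 8.65 CPM in sum, and 2 of 3 B cell markers rose. Of 5 myeloid markers 2 rose and 2 fell. The part of these markers in the result was not tested.

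The mt- genes fell over the same interval in the kidney. Of 13, 12 were lower at 3 weeks, with a median of −0.79. mt-Atp6, a proton channel subunit of complex V, was at 7347, 9475 and 9238 CPM at 1 week and between 3347 and 4548 CPM at 3 weeks, a change of −1.20 ± 0.10 with an adjusted p of 9.1e-08. mt-Co2 changed by −1.21 ± 0.10 and mt-Nd1 by −0.40 ± 0.10. mt-Nd3 was at 281.7 ± 99.6 CPM at 1 week and 335.5 ± 65.3 CPM at 3 weeks and did not pass, with an adjusted p of 0.23.

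In the recipient spleen genes were called in both directions over the same interval. Of 82 nuclear-encoded genes, 28 were lower and 14 were higher at 3 weeks, beside 17.4% and 31.9% of all 9468 genes tested, and under TMM scaling 40 were lower and 5 were higher. Ndufs8, an iron-sulfur subunit of complex I, was at 90.1, 98.2 and 107 CPM at 1 week and between 48.9 and 61.4 CPM at 3 weeks, a change of −0.83 ± 0.10 with an adjusted p of 2.2e-06. Atp5f1 fell by 0.81, Ndufa8 by 0.80, Atp5d by 0.72 and Cox4i1 by 0.61. Among genes that rose, Atp5mpl and Atp5md, small membrane proteins of complex V, changed by 0.75 ± 0.10 and 0.41 ± 0.13, Ndufaf4 by 0.74 ± 0.11 and Cox7a2 by 0.45 ± 0.08. Of the mt- genes 10 were lower and 1, mt-Nd3, was higher, from 510 ± 14.3 to 890.5 ± 225 CPM. All 5 dividing cell markers and all 3 B cell markers fell as well, from sums of 257 to 655 and 379 to 811 CPM at 1 week to 29.6 to 41.0 and 95 to 266 CPM at 3 weeks. The 1 myeloid and 1 kidney parenchyma marker tested and 1 of 2 CD4 T cell markers tested were lower too. Without cells with a dividing marker the nuclear sum was 14857 ± 194 CPM (n = 3) at 1 week and 14115 ± 683 CPM (n = 5) at 3 weeks. The part of the B cell and the other markers was not tested.

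The changes in kidney and in spleen rest on separate libraries, but in both tissues the 1-week and 3-week libraries form separate sets. A difference in preparation between the weeks would enter both changes and cannot be told apart from time. Across the 82 nuclear-encoded genes tested in both tissues the changes from 1 to 3 weeks had a Spearman rho of 0.83 and across the 13 mt- genes a rho of 0.93. These are correlations across genes, which are not independent replicates, and the spleens may come from the mice that carried the kidneys. The kidney change was below the spleen change in 73 of the 82 nuclear-encoded genes and in 13 of 13 mt- genes. Neither these counts nor the rho values were computed over all genes. The difference itself was tested as an interaction. It was negative and called for 36 of 83 nuclear-encoded genes and positive for none, beside 9.48% and 24.3% of all 11895 genes. At an unadjusted p under 0.05 edgeR gave 1 positive and 47 negative, and under TMM scaling 58 were negative. With kidney and spleen libraries blocked by week and tag number, 43 were negative and called. Without cells with a dividing marker, 3 were positive and called.

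Ndufa4 and Uqcr10 had the largest differences between the tissues. Ndufa4 was at 534, 579 and 587 CPM in kidney at 1 week and between 249 and 294 CPM at 3 weeks, while in spleen it was at 268 to 339 CPM and then at 246 to 284 CPM. The interaction was −0.86 ± 0.12 with an adjusted p of 1e-05. The 3-week kidney level thus lay inside the range of the spleen libraries of both times. Uqcr10 had an interaction of −0.87 ± 0.18, Ndufc2 of −0.73 and Atp5g1, another c subunit gene, of −0.66. For the mt- genes 6 of 13 were called and negative, and at an unadjusted p under 0.05 edgeR gave 11 negative.

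**Figure D3:**
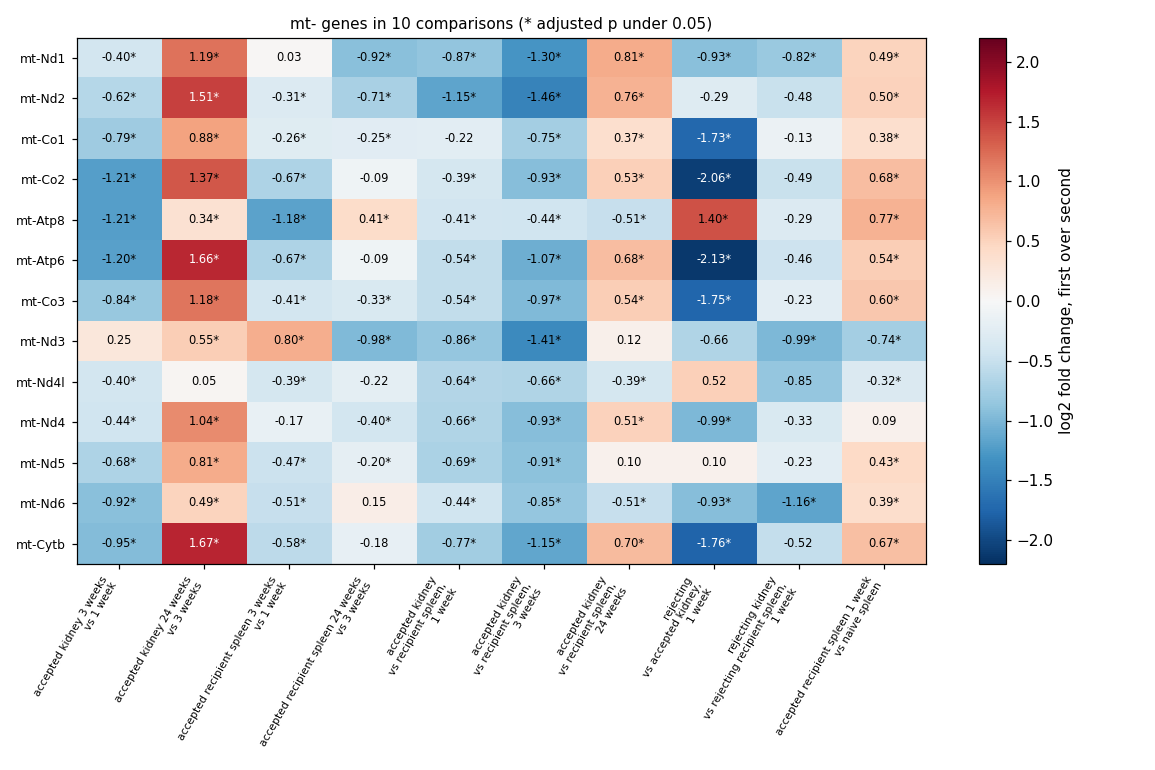
Log2 fold change of each of the 13 mt- genes (rows, in their order on the mitochondrial genome) in 10 comparisons (columns), printed in each cell and shown by colour, with red for higher and blue for lower in the group named first. An asterisk marks an adjusted p under 0.05 in edgeR, and 24 weeks stands for the libraries labelled so. The column of rejecting against accepted kidney runs from −2.13 for mt-Atp6 to 1.40 for mt-Atp8.

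At 24 weeks most mt- genes were higher than at 3 weeks in the libraries labelled kidney, and the direction of the nuclear-encoded genes there depended on the scaling. Against the 3-week kidney, the libraries labelled accepted kidney had 46 of 83 nuclear-encoded genes lower and 7 higher, beside 56.9% and 14.2% of all 11534 genes, a share lower near the background, and under TMM and DESeq2 scaling 9 were lower and 36 were higher. Their mt- genes were higher in 12 of 13, with mt-Cytb at 1.67 ± 0.05 and mt-Atp6 at 1.66 ± 0.08. The libraries labelled recipient spleen had 54 of 82 nuclear-encoded genes higher and 6 lower than the 3-week spleen, beside 31.1% and 27.4% of all 9763 genes, and 7 of 13 mt- genes lower with 1 higher. Between the labelled tissues at 24 weeks, 41 of 82 nuclear-encoded genes were lower in kidney and 4 were higher, beside 39.1% and 14.7% of all 9840 genes. Under TMM scaling 22 were lower and 18 were higher, and under DESeq2 21 and 13. Of the 13 mt- genes 8 were higher and 3 were lower, and under TMM 10 and 2. Under DESeq2 no mt- gene was called lower. All 3 B cell markers were higher in the libraries labelled kidney than in those labelled spleen, with sums of 73 to 199 CPM against 11.9 to 39.2 CPM. In that comparison 2 dividing cell, 1 CD4 T cell, 1 myeloid and 1 kidney parenchyma marker were lower. Against 3 weeks, the libraries labelled kidney had 3 B cell and 2 CD4 T cell markers higher and 4 myeloid and 4 kidney parenchyma markers lower, and those labelled spleen had all 3 B cell markers lower. Those labelled kidney also had 1 NK cell marker higher, with 1 dividing cell marker higher and 3 lower. Those labelled spleen also had 2 dividing cell, 1 myeloid and 1 kidney parenchyma marker higher, with 1 CD4 T cell marker higher and 1 lower. The part of these markers in the results was not tested.

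Cox8a and Cox7a2l stood in the reverse order between the labelled tissues at 24 weeks. Cox8a was at 523, 515 and 526 CPM in the libraries labelled kidney and 1030, 976 and 1006 CPM in those labelled spleen, whereas at 3 weeks the kidney had over 1000 CPM in each library and the spleen under 550 CPM. Cox7a2l was at 666 to 705 CPM in the libraries labelled kidney and 421 to 498 CPM in those labelled spleen, again the reverse of 3 weeks. Atpif1, the inhibitor that stops complex V from hydrolyzing ATP and is no member by its symbol, averaged 64.5 ± 1.58 CPM in the libraries labelled kidney and 135 ± 4.39 CPM in those labelled spleen (SD, n = 3 each). At 3 weeks it averaged 140 ± 10.9 CPM in kidney and 62.7 ± 9.05 CPM in spleen (n = 5 each), and at 1 week 230.3 ± 18.5 and 85.4 ± 17.6 CPM (n = 3 each).

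**Figure D4:**
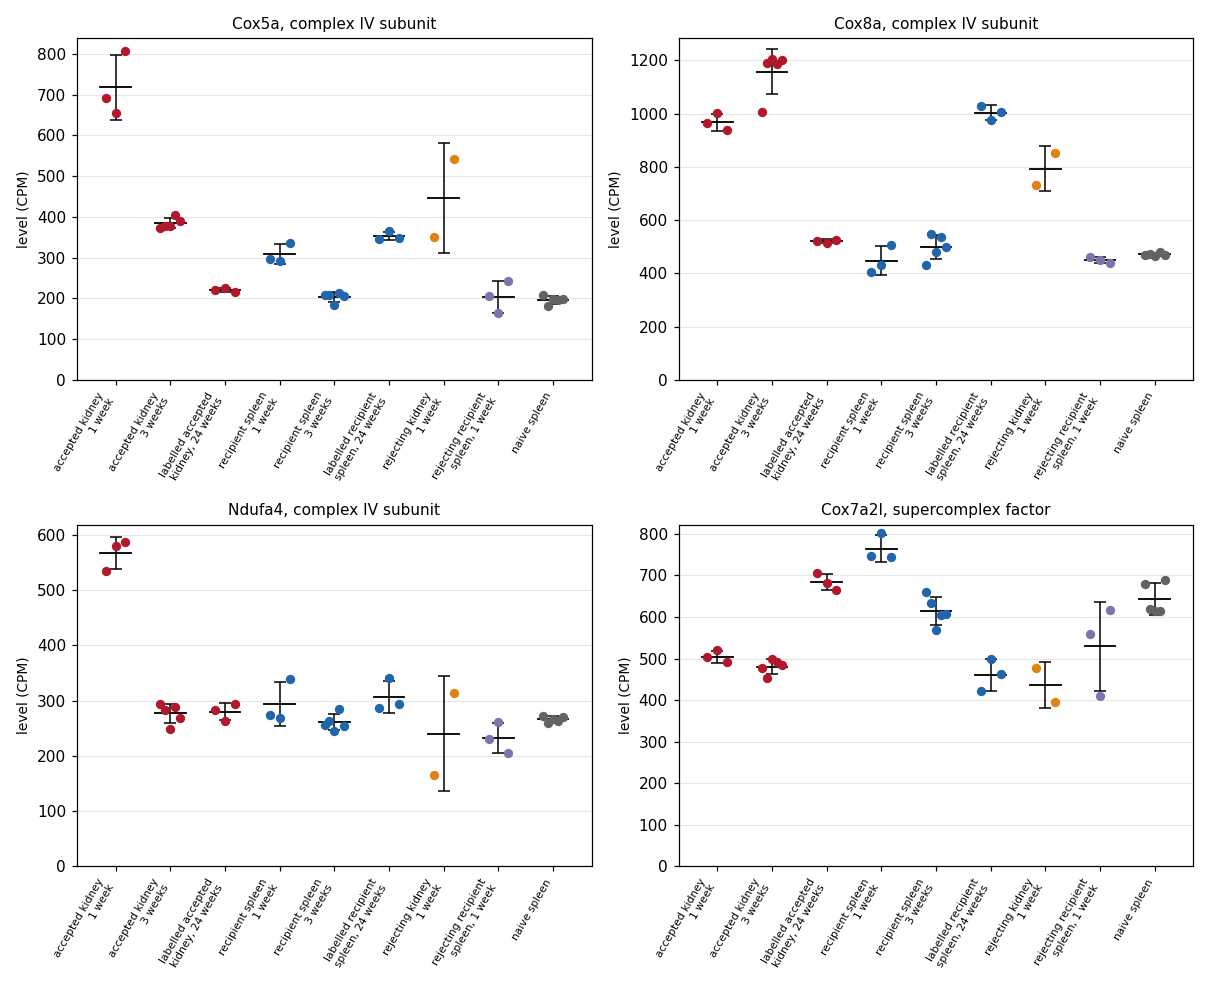
CPM of Cox5a, Cox8a, Ndufa4 and Cox7a2l in each library (points), with the mean as a horizontal line and the SD over the libraries of a group as bars. Cox5a and Ndufa4 are highest in the accepted kidney at 1 week, and at 24 weeks the libraries labelled kidney and spleen stand in the opposite order for Cox8a and Cox7a2l from that at 1 and 3 weeks.

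The rejecting kidney at 1 week, compared with the accepted kidney of the same week, had lower levels of many nuclear-encoded OXPHOS genes. Of 84 tested, 34 were lower and 3 were higher, beside 10.4% and 47.8% of all 12222 genes, and the median difference was −0.37 where that of all genes was 0.68. Under TMM scaling 70 were lower. The rejecting group had 2 libraries, and the number called higher was 8 without library 2 and 1 without library 3. These groups also differ in donor and recipient strain, in cells with a Cd4 UMI and in the genes that their matrices list. None of these can be told apart from rejection here.

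Ndufa8, a complex I subunit imported by the disulfide relay, was at 60.5 and 63.3 CPM in the rejecting and 191, 183 and 218 CPM in the accepted kidney, lower by 1.67 with an SE of 0.17 and an adjusted p of 8.5e-05. Ndufab1, the mitochondrial acyl carrier protein, was lower by 1.78 with an SE of 0.24, at 39 and 67.5 CPM against 169 to 198 CPM. The c subunit genes Atp5g3 and Atp5g2 were lower by 1.36 and 1.24 and Uqcrfs1 by 1.18. Ndufa4 was at 166 and 313 CPM against 534 to 587 CPM, and Cox7a2l, at −0.21 ± 0.16, did not pass. The 3 genes higher were Ndufaf5, at 14.6 ± 1.05 against 7.56 ± 0.653 CPM, Ndufaf2 and Atp5k. The differences of Ndufaf2 and Atp5k, each 0.60, turned negative under TMM scaling. None of the 3, Ndufaf5 included, was called higher under TMM or DESeq2 scaling or without cells with a dividing marker.

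The mt- genes of the rejecting kidney did not fall together. Of 13, 8 were lower and 1 was higher than in the accepted kidney. mt-Atp6 was at 1883 and 2083 CPM against 7347 to 9475 CPM, a difference of −2.13 ± 0.19 with an adjusted p of 4.1e-05. mt-Co2 differed by −2.06 ± 0.18, mt-Cytb by −1.76 ± 0.18, mt-Co3 by −1.75 ± 0.18 and mt-Co1 by −1.73 ± 0.17. mt-Atp8, which lies directly before mt-Atp6 on the same RNA, was at 549 and 431 CPM against 164 to 226 CPM, a difference of 1.40 ± 0.20 with an adjusted p of 0.00047. mt-Nd5 and mt-Nd4l, at 0.10 ± 0.15 and 0.52 ± 0.20, did not pass. Under TMM and DESeq2 scaling mt-Nd5 was called lower, at −0.57 and −0.60, with adjusted p of 0.016 and 0.00092.

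mt-Atp8 and mt-Atp6 are read from 1 bicistronic mRNA and share 43 bases, and mt-Nd4l and mt-Nd4 share 7 bases in the same way. The short upstream members of both pairs are printed below from the GRCm38 mitochondrial sequence, plus strand, with the bases they share with the downstream gene in capitals, since reads in the shared bases cannot be assigned to 1 gene.
mt-Atp8 (chrM:7766-7969): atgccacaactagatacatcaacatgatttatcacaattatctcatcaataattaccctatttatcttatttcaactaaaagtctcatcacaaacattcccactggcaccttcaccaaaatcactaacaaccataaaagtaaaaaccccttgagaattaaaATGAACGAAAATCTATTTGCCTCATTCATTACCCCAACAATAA
mt-Nd4l (chrM:9877-10173): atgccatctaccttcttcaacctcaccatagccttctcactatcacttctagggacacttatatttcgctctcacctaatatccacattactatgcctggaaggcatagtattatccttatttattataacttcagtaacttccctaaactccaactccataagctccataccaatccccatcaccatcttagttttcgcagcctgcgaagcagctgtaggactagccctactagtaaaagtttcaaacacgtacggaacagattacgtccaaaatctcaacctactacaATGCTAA

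As shares of all mt- UMIs, which do not depend on the nuclear genes, these upstream members separated the rejecting libraries from the others. They were not alone in this. mt-Atp8 was 3.99% and 3.09% of mt- UMIs in the rejecting kidneys and 2.31%, 1.81% and 5.52% in the rejecting spleens, and no accepted or naive library exceeded 0.505%. mt-Nd4l was 1.99% and 1.62% in the rejecting kidneys and 1.72% to 3.44% in the rejecting spleens, above the highest other library at 1.01%. mt-Nd5 was 4.01% and 3.62% in the rejecting kidneys and 2.85% to 3.86% in the rejecting spleens, against at most 1.70% elsewhere. mt-Nd2, which shares no bases with another mt- gene, was 7.10% to 12.2% over the rejecting libraries and at most 6.92% elsewhere. mt-Nd6 was 0.220% to 0.566% over the rejecting libraries and at most 0.198% elsewhere. mt-Atp6, in turn, was 13.7% to 15.3% of mt- UMIs over the rejecting libraries and at least 16.3% in every other library. The recipient strain and the highest mt- share of a cell differ between these groups. The matrices also differ in the cells and genes they hold. In the rejecting spleen 100% of cells had a CD8 UMI, beside 44.2% and 46.8% in the recipient spleen at 1 and 3 weeks. In naive spleen 96.1% did. A Cd4 UMI was in 0% of the rejecting kidney CD8 cells and in 0.683% to 4.07% per accepted kidney library. Only the 2 rejecting matrices list Cox7b2, Cox8b and Cox8c. None of these differences can be told apart from rejection.

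**Figure D5:**
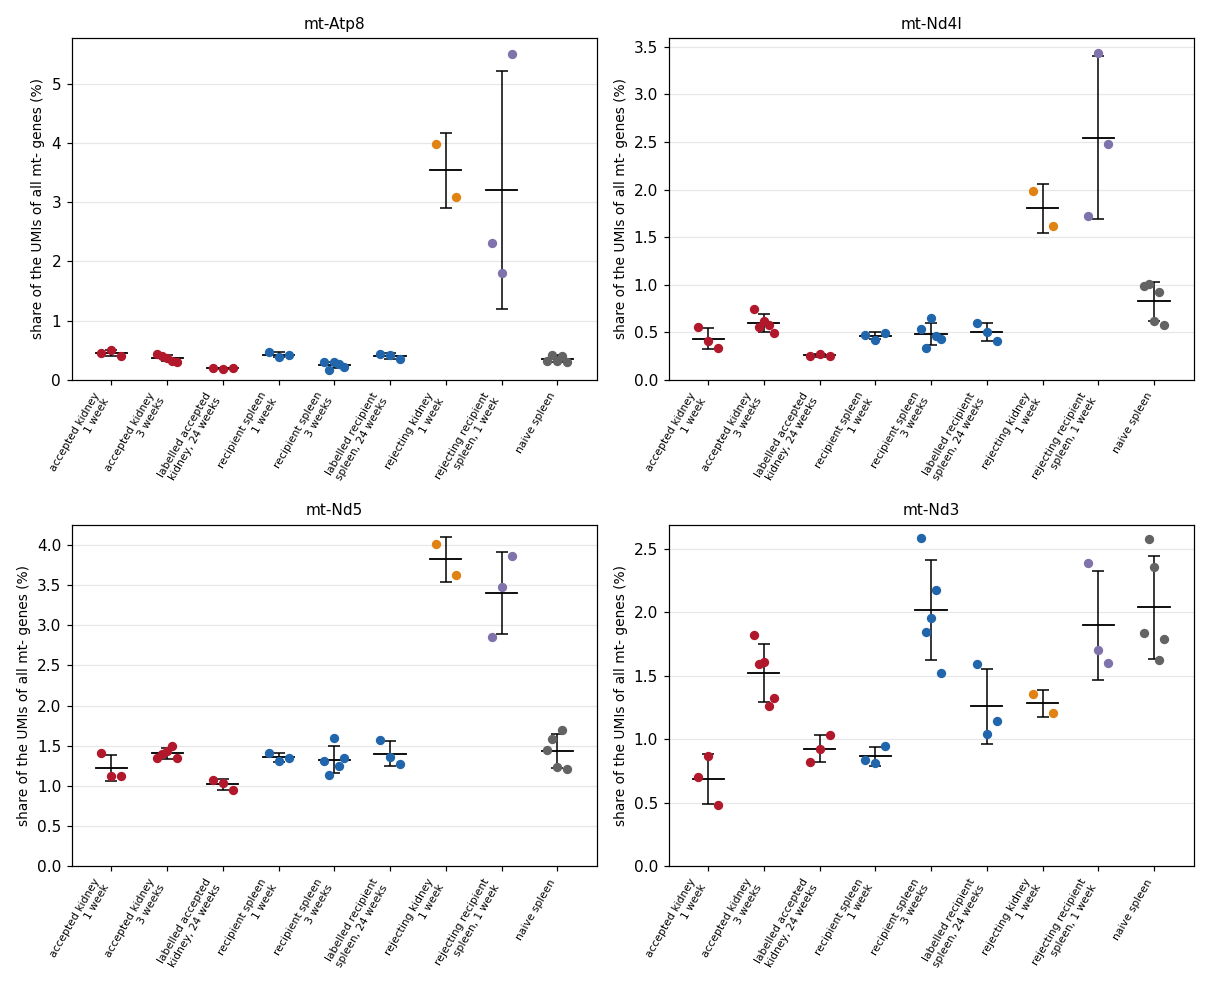
Share of each library's mt- UMIs, in percent, that came from mt-Atp8, mt-Nd4l, mt-Nd5 and mt-Nd3 (points), with the mean as a horizontal line and the SD over the libraries of a group as bars. The 5 rejecting libraries lie between 1.81% and 5.52% for mt-Atp8, and the others do not exceed 0.505%.

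mt-Nd3 had its own pattern. It was 2.04% of mt- UMIs in naive spleen (mean, n = 5), 0.867% in the recipient spleen at 1 week (n = 3) and 2.02% at 3 weeks (n = 5), and in the kidney 0.685% at 1 week and 1.52% at 3 weeks. Its CPM in the recipient spleen was lower than in naive spleen at 1 week, by 0.74 with an SE of 0.14 and an adjusted p of 0.00019, while 10 of the other 12 mt- genes were higher.

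Within rejecting recipients, kidney stood above spleen for 12 of 81 nuclear-encoded genes and below it for 1, beside 11.4% and 5.79% of all 8187 genes tested. Under TMM and DESeq2 scaling 4 and 3 were higher. The share near 11.4% sets these calls close to the background, although 72 of the 81 differences were positive, with a median of 0.47 against 0.25 over all genes. The count ranged from 1 to 30 when single libraries were left out. Ndufb7 was at 213 and 345 CPM in kidney and 97.9 to 135 CPM in spleen, a difference of 1.23 ± 0.28, Cox5a of 1.10 ± 0.27 and Cox8a of 0.82 ± 0.23. Ndufaf4 was the gene called lower, at 13.3 and 12.7 CPM in kidney and 29, 71.8 and 33.3 CPM in spleen, and the call was lost without spleen library 1, 2 or 3, with adjusted p of 0.052, 0.054 and 0.067 in edgeR. Of the mt- genes mt-Nd1, mt-Nd3 and mt-Nd6 were lower. With DESeq2 7 were lower, and with the libraries blocked by tag number 1 was. The 3 calls were lost without kidney library 3 or spleen library 1, and without spleen library 2 the count was 1. All 3 B cell markers were lower in these kidneys, with sums of 8.72 and 3.45 CPM against 58.7 to 258 CPM in spleen, and 4 of 5 dividing cell markers were higher. The part of these markers in the result was not tested.

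The rejecting kidneys differed from each other in dividing cells, 30.1% in library 2 and 77.9% in library 3, and library 3 had the higher sums of complexes I, III, IV and V. Without cells with a dividing marker their nuclear sums were 13945 and 16971 CPM. The myeloid marker sum was 134 to 147 CPM in these kidneys and 38 to 85 CPM in the accepted kidney at 1 week. Of the 5 myeloid markers 2 were called higher than in the accepted kidney and 1 was called lower. The erythroid marker sum was 252 CPM in library 2 and 0.383 CPM in library 3, and 1 erythroid marker was called higher than in the accepted kidney. Of the CD4 T cell markers 2 of 3 were lower, and 1 NK cell marker was lower. Of 5 dividing cell markers 1 was higher and 1 was lower, and of 4 T cell markers 2 were higher and 1 was lower. The part of these markers in the result was not tested.

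The recipient spleen at 1 week and naive spleen were compared outside the graft. Of 82 nuclear-encoded genes, 36 were higher and 12 were lower, beside 21.1% and 36.5% of all 10160 genes tested, with a median of 0.14 against −0.17 over all genes. Under TMM scaling 51 were higher and 5 were lower. Complex I subunits gave 20 of these and complex V 9, whereas 1 of 8 complex III genes, Uqcrfs1, was called, at 0.70 ± 0.07. Ndufs8 was at 90.1, 98.2 and 107 CPM against 41.5 to 52.5 CPM, higher by 1.05 ± 0.09 with an adjusted p of 2.8e-08. Ndufv2 was higher by 1.01 ± 0.08, Atp5d, the delta subunit of the F1 stalk, by 0.84 ± 0.08, Atp5g3 by 0.82 ± 0.07 and Cox4i1 by 0.73 ± 0.07. Lower in the recipient spleen were Ndufaf4, by 0.80 with an SE of 0.09, Atp5mpl, by 0.67 with an SE of 0.11, and Atp5md and Ndufc1, by 0.46 and 0.44. Of the mt- genes 10 were higher and mt-Nd3 was lower. mt-Nd4l was called lower at −0.32, with an adjusted p of 0.039 in edgeR, and lost the call under TMM and DESeq2 scaling, with adjusted p of 0.32 and 0.56, and without library 1 or 2 of the recipient spleen or 1, 2 or 4 of naive spleen. The summed B cell markers were 24.5 to 48.3 CPM in naive spleen and 379 to 811 CPM in the recipient spleen. Also higher in the recipient spleen were 2 CD4 T cell, 2 myeloid, 1 NK cell and 1 kidney parenchyma marker, and 3 erythroid markers were lower. The part of these markers in the result was not tested. All 5 dividing cell markers were higher too, with sums of 257 to 655 CPM against 16.9 to 31.0 CPM in naive spleen. Without cells with a dividing marker 32 nuclear-encoded genes were higher and 20 were lower, and the share of all genes called then is not given here.

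Ndufaf4 ran against most other nuclear-encoded members in several comparisons. Its mean was 23.6 ± 1.97 CPM in the accepted kidney at 1 week (n = 3), 30.2 ± 2.95 CPM at 3 weeks (n = 5), 28.7 ± 1.98 CPM in the recipient spleen at 1 week (n = 3), 48.1 ± 5.49 CPM at 3 weeks (n = 5), 50.0 ± 2.64 CPM in naive spleen (n = 5) and 13.0 ± 0.484 CPM in the rejecting kidney (n = 2). In order of level the rejecting kidney was lowest, the 1-week spleen and the 3-week kidney overlapped, and so did the 3-week spleen and naive spleen.

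The tissue-restricted isoforms of complex IV were nearly absent. Cox4i2, known from lung and hypoxic cells, had 4 UMIs over all libraries, in 3 of them, and Cox6a2, the heart and muscle isoform of subunit VIa, had 43 UMIs in 20 libraries. Cox7a1, another muscle isoform, had 105 UMIs in 20 libraries and reached 1.24 ± 0.197 CPM in the accepted kidney at 1 week (n = 3), 2.50 ± 1.35 CPM in the rejecting kidney (n = 2) and 2.86 ± 3.04 CPM in the rejecting spleen (n = 3), where it rests on 6 UMIs. Ndufa4l2, a hypoxia-induced paralog of Ndufa4, had 1 UMI in the 7 of 9 matrices that list it. Cox8b, Cox8c and Cox7b2 had no UMI in the 2 matrices that list them, those of rejecting kidney and rejecting spleen, and were not measured in the others. A count of 0 limits the level and does not show that the gene is silent.

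Changes of the nuclear-encoded genes were also described by coding length. In the recipient spleen from 1 to 3 weeks, 20 genes with a coding sequence of up to 300 bases had a median change of 0.26, with 9 higher, and 60 longer genes had a median of −0.23, with 4 higher and 28 lower, where the medians of all genes of these lengths were −0.19 and 0.17. The split was chosen after the values were seen. Between the recipient spleen at 1 week and naive spleen the medians were −0.16 for short and 0.38 for long genes. In the kidney from 1 to 3 weeks they were −0.12 and −0.59. The Spearman rho of change with coding length was −0.56, 0.58 and −0.33 in these 3 comparisons, and over all genes with a length it was 0.50, −0.44 and 0.40, of the opposite sign in each of the 3. Over the 10 comparisons made, the sign of rho was opposite in 6 and the same in 4, among them kidney against spleen at 1 week, with −0.53 for the members and −0.17 for all genes. For the members rho was −0.096 in rejecting against accepted kidney and 0.14 in rejecting kidney against rejecting spleen. These are descriptions across genes that share the libraries.

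Genes that assist OXPHOS were called in both directions, and in kidney against spleen at 1 and 3 weeks their shares called higher lay near the background. Of 46 listed genes of complex II, cytochrome c, assembly of complexes III and IV, upkeep of mitochondrial DNA and its regulators, 45 were tested, and 14 were higher and 5 were lower in kidney than in spleen at 1 week, beside 30% and 19.4% of all genes. The copper chaperone Cox17 was higher by 1.35 and the transcription factor subunit Gabpb1 by 1.18, while the coactivator Ppargc1b was lower by 1.18 and the mitochondrial elongation factor Tefm by 0.96. From 1 to 3 weeks in the kidney 14 were higher and 16 were lower, beside 53.6% and 21.2% of all genes. Sdhd and Sdhb, subunits of complex II, fell by 2.11 and 1.15, and Ppargc1b and the nuclear receptor Esrra changed by 1.99 and 0.95. In the recipient spleen over the same interval 7 were higher and 8 were lower, beside 31.9% and 17.4%, with Sdhd at −1.70 and Ppargc1b at 1.11. At 3 weeks 20 were higher and 9 were lower in kidney than in spleen, beside 48.7% and 16.8%. Of the same genes 12 were higher and 9 were lower in the rejecting than in the accepted kidney, beside 47.8% and 10.4%, with Ppargc1b at 2.31 and Sdhd at −1.95. The recipient spleen at 1 week had 9 higher and 12 lower than naive spleen, beside 21.1% and 36.5%, with Sdhd at 1.26 and Ppargc1b at −0.93. In rejecting recipients 37 were tested, and Cycs, which encodes cytochrome c, was higher in kidney by 1.11 and Tfb2m, a mitochondrial transcription factor, was lower by 1.07.

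The promoters of the nuclear-encoded members were searched for 4 motifs in both strands, in RefSeq windows of GRCm38.p6 around the annotated starts. A window was found for 74 of the 90 genes. The letters GCGCATGCG, taken from the palindromic site of NRF1, were in 10 of them, or 13.5%, and in 1.95% of the 27025 genes with a window of the same length. The YY1 letters AAGATGGCG were in 8, or 10.8% against 1.64%. The GABPA motif CCGGAAGTG was in 2, or 2.7% against 2.25%, and the ERRA motif TCAAGGTCA in 1, or 1.35% against 0.466%. A match is a description of letters only. The 5 windows below hold the NRF1 letters upstream of the start, in capitals and on either strand, and are shown for calls in different comparisons: Cox6a1 and Ndufaf4 were among the genes that rose in the recipient spleen from 1 to 3 weeks, Atp5l was higher in the accepted kidney than in the recipient spleen at 1 and 3 weeks, Atp5k was higher in the rejecting than in the accepted kidney by library totals but not under TMM, and Ndufa11 was higher in the rejecting kidney than in the rejecting spleen. The share of members called higher in that last comparison lay close to the background, as given above. Ndufaf4 was also called lower in the 3-week kidney against spleen and in the 1-week recipient spleen against naive spleen. A relation between the motif and any change was not tested.
Atp5k (chr5:108434401-108434489, minus strand): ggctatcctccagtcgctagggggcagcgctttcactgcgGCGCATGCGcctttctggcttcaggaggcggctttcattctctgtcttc
Atp5l (chr9:44920935-44920992, minus strand): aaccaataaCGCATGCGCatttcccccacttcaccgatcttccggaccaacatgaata
Cox6a1 (chr5:115349072-115349160, minus strand): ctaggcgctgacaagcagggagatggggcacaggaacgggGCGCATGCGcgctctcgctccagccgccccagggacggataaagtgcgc
Ndufa11 (chr17:56717662-56717750, plus strand): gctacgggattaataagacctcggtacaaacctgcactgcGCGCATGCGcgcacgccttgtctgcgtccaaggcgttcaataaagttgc
Ndufaf4 (chr4:24897930-24898018, plus strand): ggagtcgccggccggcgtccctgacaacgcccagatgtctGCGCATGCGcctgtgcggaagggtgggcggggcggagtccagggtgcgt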

How the data were processed

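The authors mapped 10x Genomics 3′ reads with Cell Ranger to mm10, as the submitters' processing notes name them, removed cells on their UMI number, detected genes and share of mitochondrial reads, with limits not given in the sources used here, clustered the cells in Seurat and named cell types by hand. They deposited raw UMI counts per gene and cell without normalization, and the 9 matrices of CD8+ T cells were used. The 7 matrices of total CD45+ cells were not used here. Barcode tags separated 32 libraries, and conditions came from the sample labels. The donor and recipient strains come from the study's text, since the labels give 1 strain throughout.

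Over cells in which Cd8a or Cd8b1 was detected, UMI counts were summed per library (Python 3.11.15, pandas 2.3.3) and tested with edgeR 4.0.16 in R 4.3.3 on plain library totals, with filterByExpr, the quasi-likelihood test and Benjamini-Hochberg adjustment over all genes at 0.05. Each fit held only the groups compared and the genes listed in both matrices. The SE is the size of the log2 change divided by the square root of its F statistic. The change from 1 to 3 weeks in kidney and in spleen was compared as an interaction term. TMM factors, DESeq2 1.42.0, no low-count filter, all cells of a matrix, totals without mt- genes and leaving out each library were alternatives. Leaving out cells with a Cd4 UMI or a dividing marker, and blocking kidney and spleen by tag number, in the interaction too, were chosen after seeing the data. On simulated data with 200 genes changed 2-fold, the test recovered 89.5% for the 3-week against the 1-week kidney (11638 genes), 79% for kidney against spleen at 1 week (11133 genes), 28.5% for rejecting against accepted kidney (12222 genes) and 0.5% for rejecting kidney against rejecting spleen (8187 genes). In the same order, 7.73%, 7.06%, 10.9% and 0% of the calls fell on unchanged genes. All but the last exceeded the threshold of 0.05.

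Deviations of same-numbered kidney and spleen tags at 1 week had correlations of 0.145, 0.128 and 0.267. Tags of different numbers were not compared, so whether same-numbered tags pair was not tested. At 3 weeks, 24 weeks and in rejecting recipients not every pair passed 0.1. Sequences and gene positions are from GRCm38 with GENCODE M21, and promoters from RefSeq. The members and gene lists were chosen with earlier results of these data known. Named genes are all mt- genes, in each comparison and each complex the 2 largest and 2 smallest called changes among members with a mean of at least 10 CPM, a fixed set of isoforms with Ndufa4, Cox7a2l and Atpif1, and the 2 largest and 2 smallest changes among 46 assisting genes. Other values of named genes, such as per-library levels of Cox8a at 24 weeks, were chosen after they were seen. Library totals set the counting precision, and the rejecting spleen libraries were the least precise. A marker gene that was listed at the design stage is not reported here and is left out of the marker sums.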

Additional observations from a re-analysis of the deposited data

Results flagged for a closer look

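Library 1 of the accepted kidney at 3 weeks stood below the other 4 libraries of its group. Its sum was 1671 CPM for complex III, 5387 CPM for complex IV and 17244 CPM for all nuclear-encoded genes, with 17444 CPM in its cells with a dividing marker and 17192 CPM in those without, and Cox4i1 was at 740 CPM. Library 3 of the recipient spleen at 3 weeks was low for mt-Co3, at 8022 CPM. These were 7 of 84 groups of values tested by Dixon's criterion, which chance alone passes for about 1 group in 20.

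The change from 1 to 3 weeks differed between kidney and recipient spleen for 22 of the genes named for the change in either tissue, by the interaction term, and each difference was lower in kidney. For complex I they were Ndufc2 at −0.73, Ndufv2 at −0.61, Ndufc1 at −0.54, Ndufs8 at −0.45 and Ndufa8 at −0.35. For complex III they were Uqcr10 at −0.87, Uqcrc1 at −0.49 and Uqcrfs1 at −0.47. For complex IV they were Ndufa4 at −0.86, Cox6a1 at −0.48, Cox7a2 at −0.46 and Cox5a at −0.30. For complex V they were Atp5o at −0.62, Atp5mpl at −0.58, Atp5g3 at −0.56 and Atp5j2 at −0.46. The mt- genes were mt-Co2 at −0.54, mt-Atp6 at −0.53, mt-Co1 at −0.53, mt-Co3 at −0.43, mt-Nd1 at −0.43 and mt-Cytb at −0.38. The median of this difference over all genes was 0.23.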

How the results depend on the processing

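Depth limits the rejecting spleen most. CPM by library totals and TMM factors center on different genes, and the cause of the moves below was not tested. Counts below are of nuclear-encoded genes unless mt- genes are named, with TMM before DESeq2. For the 3-week against the 1-week kidney, 5 higher became 0 and 0, or 11 without dividing cells, and 51 lower became 77 and 77. For the 24-week against the 3-week kidney, 7 higher became 36 and 36, or 11 with totals without mt- genes, and 46 lower became 9 and 9. For the spleen from 1 to 3 weeks, 14 higher became 5 and 3. For kidney against spleen at 1 week, 1 lower became 2 with TMM and 2 without dividing cells. At 3 weeks 56 higher became 30 and 32 and 4 lower became 18 and 16. At 24 weeks 4 higher became 18 and 13, 41 lower became 22 and 21, and 3 mt- genes lower became 0 with DESeq2. For rejecting against accepted kidney, 3 higher became 0 and 0, 1 with all cells and 0 without dividing cells, 34 lower became 70 and 69, and 1 mt- gene higher became 2 without the filter and 2 with all cells. For rejecting kidney against rejecting spleen, 12 higher became 4 and 3, or 7 with all cells, and 3 mt- genes lower became 7 with DESeq2. For the recipient spleen against naive spleen, 12 lower became 5 and 5, or 20 without dividing cells, and 2 mt- genes lower became 1 with TMM, DESeq2, totals without mt- genes and without dividing cells. For the interaction, 36 lower became 58 and 6 mt- genes lower became 11 with TMM, and 0 higher became 3 without dividing cells. DESeq2, no filter and no Cd4 UMI were not run for the interaction.

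With the tags as a replicate block, kidney against spleen gave 59 higher at 3 weeks and 40 lower at 24 weeks, and in rejecting recipients 10 higher and 1 mt- gene lower. No other count of kidney against spleen moved by over 1.5 times, nor did the interaction, with 43 nuclear-encoded and 9 mt- genes lower.

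Leaving out single libraries gave these ranges, higher before lower, nuclear before mt-. The kidney from 1 to 3 weeks had 3 to 7, 48 to 53, 0 to 1 and 11 to 12, with 3 without library 3 of the 1-week kidney and 1 mt- gene higher without its library 2. The kidney from 3 to 24 weeks had 7 to 9, 42 to 48, 11 to 13 and 0 to 0. The spleen from 1 to 3 weeks had 7 to 21, 27 to 31, 1 to 1 and 9 to 11, with 8 and 7 without libraries 1 and 2 of the 1-week spleen, and from 3 to 24 weeks 47 to 59, 6 to 6, 1 to 1 and 6 to 8. Kidney against spleen had 65 to 71, 1 to 1, 0 to 0 and 11 to 13 at 1 week, 55 to 60, 3 to 4, 0 to 0 and 13 to 13 at 3 weeks, and 3 to 5, 38 to 40, 8 to 9 and 3 to 3 at 24 weeks. Rejecting against accepted kidney had 1 to 8, 28 to 51, 1 to 2 and 8 to 9, with 1 without library 1 or 3 of the accepted kidney. Rejecting kidney against rejecting spleen had 1 to 30, 0 to 1, 0 to 0 and 0 to 4, with 30 and 1 without kidney libraries 2 and 3, and 1, 4 and 2 without spleen libraries 1, 2 and 3. The recipient against naive spleen had 35 to 37, 9 to 18, 10 to 11 and 1 to 2, with 1 mt- gene lower without libraries 1 or 2 of the recipient spleen or 1, 2 or 4 of naive spleen. The interaction had 0 to 1, 27 to 43, 0 to 0 and 5 to 9, with 1 higher without library 2 of either kidney group or library 1 of the 3-week spleen.

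Named genes that changed sign are given next, with TMM before DESeq2 where scaling did so. From 1 to 3 weeks in kidney, Atp5md was at −0.015 and −0.023, Cox8a at −0.13 and −0.14, Ndufa2 at −0.16 and −0.17, Ndufa5 at −0.0593 and −0.0659 and Ndufaf4 at −0.026 and −0.033, and without dividing cells Atp5j2 was at 0.014 and Uqcrc1 at 0.022. From 3 to 24 weeks in kidney, Atp5d was at 0.16 and 0.14, Cox4i1 at 0.39 and 0.37, called higher under both, Cox7b at 0.12 and 0.10 and Ndufaf8 at 0.14 and 0.12. For kidney against spleen at 3 weeks, Atp5c1 was at −0.0295 and −0.0101, Atp5g3 at −0.088 and −0.069, Ndufa4 at −0.18 and −0.16, called lower under both, and Uqcrh at −0.036 and −0.019. For rejecting against accepted kidney, Atp5k was at −0.075 and −0.10, Ndufaf2 at −0.0642 and −0.0895 and mt-Nd5 at −0.57 and −0.60, called lower under both. Over all results of named genes, 260 kept their side of the threshold under TMM, 253 under DESeq2, 313 with all cells, 319 without the filter and 319 with totals without mt- genes. Under TMM 37 lost a call, 14 gained a call and 16 changed sign as above. Under DESeq2 these counts were 41, 17 and 16. Without dividing cells 303 kept their side, 15 lost a call, 4 gained a call and 2 changed sign. Without cells with a Cd4 UMI 324 kept their side, and with the replicate block 120 did and 8 lost a call.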
